A study of Rattus norvegicus with 6 samples.

Results

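The hypoxia genes examined here were 10 genes chosen by name, namely the 2 oxygen-regulated subunits of the hypoxia-inducible factor (Hif1a and Epas1), 2 of its oxygen sensors (Egln1 and Egln3) and 6 genes that it is known to induce (Vegfa, Adm, Bnip3, Pdk1, Ndrg1 and Ankrd37). They were found by gene symbol in a count table of 18930 genes, which listed 8 of the 10. Egln3 and Adm had no row and were not analysed here. NRK-52E, an established wild-type epithelial line derived from rat kidney, was kept for 24 h either with vehicle (Control, 3 samples) or with streptozotocin (STZ) at 10 mM (3 samples), and RNA was sequenced as stranded mRNA libraries. STZ is a glucose analog that alkylates DNA, and in the cell counting assays of the study it was dissolved in dimethyl sulfoxide. No label says whether the 3 samples of a group were separate cultures. The p-values here rest on the spread between these samples, which may differ from that between separate cultures. Total counts lay between 10430924 and 15191349 per sample, and levels are given as CPM, the number of reads of a gene among 1000000 reads of all genes tested after the libraries were scaled.

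The hypoxia-inducible factor is a transcription factor made of an alpha subunit, HIF-1α or HIF-2α, and a constant partner such as ARNT. When oxygen is plentiful, prolyl hydroxylases of the EGLN family mark the alpha subunit, the von Hippel-Lindau (VHL) ligase binds the mark, and the subunit is degraded. When oxygen is short the subunit is kept and induces genes of blood vessel growth, glycolysis and mitochondrial adaptation, in tubular epithelium as in other tissues. This control acts on the protein, so a messenger RNA level of Hif1a or Epas1 is not a measure of the factor's activity.

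The cells carried few reads of markers of the mature proximal tubule. Of 6 such markers, 5 had 0 to 10 reads in any sample and were removed by the filter on low counts, while Aqp1, a water channel of the proximal tubule, fell from 13.1 to 5.43 CPM. Of 7 general epithelial markers, Krt8 and Tjp1 were abundant, at 1149 and 612 CPM in Control and 1604 and 681 CPM in STZ, Cdh1 was lower in STZ with 16 to 35 reads per sample (2.58 CPM in Control and 1.64 CPM in STZ, edgeR adjusted p = 0.0296), Krt18 had 0 to 3, and the other 3 had no row. The summed level of 4 endothelial markers was 0.455 to 0.754 CPM in Control and 0.80 to 1.13 CPM in STZ. All 4 were removed by the filter, with 0 to 9 reads in any sample. Only Kdr was higher in every STZ sample, with 0, 2 and 1 reads in Control and 6, 9 and 7 in STZ. The 3 listed fibroblast markers that were tested all fell at an adjusted p below 0.05 in edgeR, where 25.1% of all genes tested were lower. Col3a1 fell most, from 53.9 to 21.3 CPM, while the groups of Col1a1 overlapped. The summed level of the fibroblast list was 99.6 to 111 CPM in Control and 56.1 to 66.7 CPM in STZ. The summed level of 3 macrophage markers was 0.637 to 2.07 CPM in Control and 1.87 to 2.11 CPM in STZ. The part of these shifts in the results that follow was not tested.

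Hif1a rose slightly in STZ-treated cells, while Egln1, Vegfa and Pdk1 fell. Of the 6 members that passed the filter on low counts, 1 was higher and 3 were lower in STZ at an adjusted p below 0.05, by the quasi-likelihood test of edgeR with p-values adjusted over 11870 genes after Benjamini and Hochberg. Of all genes tested, 50.9% were past this threshold, 25.9% higher and 25.1% lower. The median log2 fold change was -0.29 over the 6 members and -0.01 over all genes tested. None of the 6 also had an absolute log2 fold change over 1, which 3.37% of all genes tested had, and the count was 0 as well at an unadjusted p under 0.05, by DESeq2 and by limma-voom. Of the 6 members, 5 had an unadjusted p under 0.05, as had 55.9% of all genes tested.

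Hif1a encodes HIF-1α, the subunit whose protein is degraded in normal oxygen. Its level was 153, 148 and 155 CPM in Control replicates 1, 2 and 3 and 172, 172 and 176 CPM in STZ replicates 1, 2 and 3. All STZ samples lay above all Control samples, and the spread within each group was narrow, with means of 173 ± 2.05 CPM in STZ (SD, n = 3) and 152 ± 3.47 CPM in Control (SD, n = 3). The fitted log2 fold change of Hif1a was 0.19 (standard error, SE, 0.04, edgeR adjusted p = 1.6e-04), a rise of 14.1%. Of all genes tested, 24.6% had a larger positive log2 fold change than Hif1a. In the GRCr8 annotation the gene overlaps a long non-coding RNA, LOC120103553, and reads of the pair may not be fully separated because no source gives the strand option used in counting. LOC120103553 has no row of its own in the count table, so the size of this limit cannot be given.

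Epas1, which encodes HIF-2α, had almost no reads in these cells. It had 2, 3 and 2 reads in Control and 2 reads in each STZ sample. With 7 reads in Control and 6 in STZ, the ratio of its share of all reads in STZ to that in Control was 0.716, with an exact 95% interval of 0.199 to 2.49 that covers counting error only. A change of Epas1 was thus not detectable at this depth. The log2 ratio of Epas1 to Hif1a reads within a sample, which does not depend on the scaling of libraries, was -9.28 ± 0.39 in Control (SD, n = 3) and -9.85 ± 0.21 in STZ (SD, n = 3). The groups overlapped, and the difference of -0.57 had an exact two-sided permutation p of 0.2, where 0.1 is the smallest p that 3 samples against 3 allow.

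Egln1 encodes PHD2, the prolyl hydroxylase that marks HIF-1α for degradation and is itself induced by the factor. Its level was 39.7, 40.7 and 44.4 CPM in the Control replicates and 31.7, 35.2 and 33.8 CPM in the STZ replicates. Every STZ sample lay below every Control sample. The log2 fold change of Egln1 was -0.32 (SE 0.07, edgeR adjusted p = 1.1e-04), with a 95% interval of -0.45 to -0.18.

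Vegfa, the growth factor that drives the sprouting of blood vessels, showed the largest change among the 6 members tested. Its level was 30.9, 30.6 and 33.2 CPM in the Control replicates and 22.8, 24.0 and 22.0 CPM in the STZ replicates. The groups were well apart, with means of 31.6 ± 1.44 CPM in Control (SD, n = 3) and 22.9 ± 0.991 CPM in STZ (SD, n = 3). The log2 fold change of Vegfa was -0.47 (SE 0.08, edgeR adjusted p = 1.4e-06), a fall to 0.723 times the Control level. Of all genes tested, 7.43% fell further.

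Pdk1, a kinase that inactivates pyruvate dehydrogenase and so keeps pyruvate out of the citric acid cycle, was at 38.2, 39.6 and 39.9 CPM in the Control replicates and 27.5, 30.8 and 31.5 CPM in the STZ replicates. No STZ sample reached the lowest Control sample. The log2 fold change of Pdk1 was -0.39 (SE 0.07, edgeR adjusted p = 7.2e-06), and its 95% interval was -0.53 to -0.25.

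Bnip3, a receptor on the outer mitochondrial membrane that directs mitochondria to autophagy, did not pass the threshold. Its level was 31.0, 36.4 and 34.4 CPM in the Control replicates and 29.0, 31.1 and 30.9 CPM in the STZ replicates. STZ replicate 2 lay just above Control replicate 1, so the groups overlapped. The log2 fold change of Bnip3 was -0.16 (SE 0.07, 95% interval -0.31 to -0.02, edgeR adjusted p = 0.0532). Of 15 alternatives 4 passed, all in edgeR, with an adjusted p of 0.015 without Control replicate 1, 0.019 with library size only, 0.0306 with the upper quartile and 0.0497 with the replicate block. The other 11 did not, up to 0.148 by DESeq2 and 0.246 in edgeR without Control replicate 2.

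Ankrd37, an ankyrin repeat gene with a strong response to hypoxia, had few reads. It had 26, 20 and 40 reads in Control and 34, 22 and 27 reads in STZ, or 1.82 to 3.12 CPM and 1.80 to 2.47 CPM. The groups overlapped over most of their range. The log2 fold change of Ankrd37 was -0.27 with a 95% interval of -0.78 to 0.24 (edgeR adjusted p = 0.383), so a change of the size seen in Vegfa could not be told from none. Ankrd37 overlaps Lrp2bp in the GRCr8 annotation, a gene with 0 to 7 reads per sample. Ndrg1, a stress gene that restrains growth and is a common reporter of hypoxia, had 1, 1 and 2 reads in Control and 0, 3 and 1 in STZ. The ratio of its share of reads in STZ to that in Control was 0.836, with an exact 95% interval of 0.156 to 4.49 for counting error only, so no change of Ndrg1 was detectable at this depth.

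**Figure D1:**
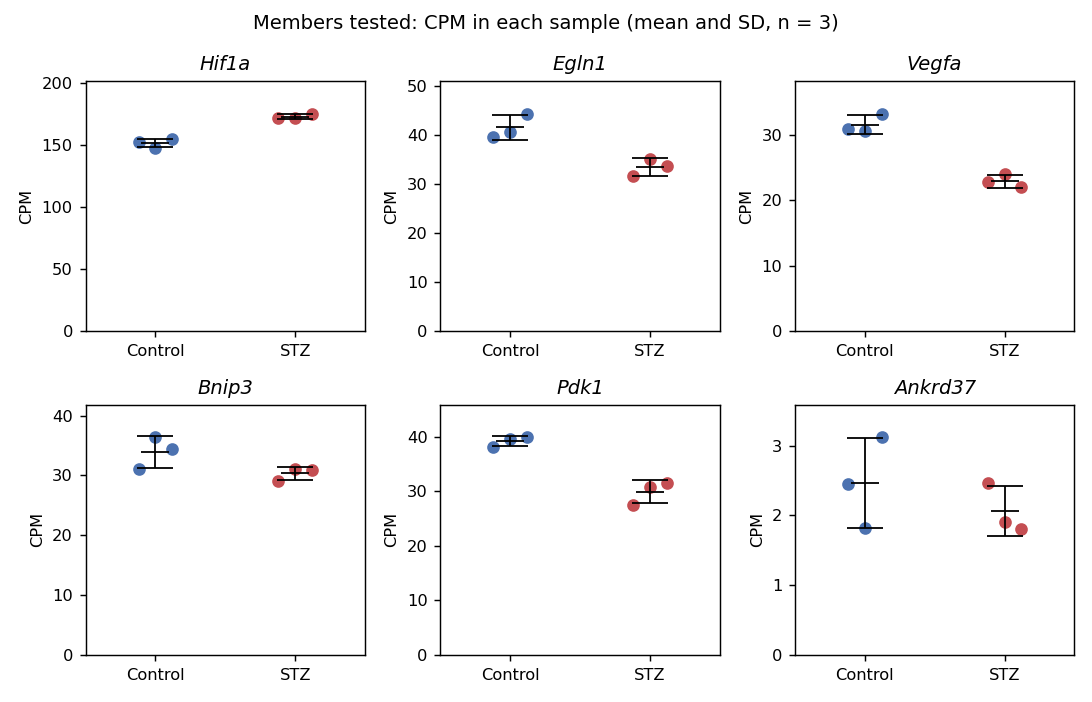
CPM of the 6 members tested in each of the 3 Control and 3 STZ samples, on axes that start at 0, with the mean and SD as bars. The STZ points of Hif1a lie above its Control points, those of Egln1, Vegfa and Pdk1 lie below, and those of Bnip3 and Ankrd37 overlap with Control.

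Of the 6 members tested, 1 lay entirely above and 3 entirely below Control, where 56.3% of all genes tested did not overlap, 28.6% above and 27.7% below. The summed level of Egln1, Vegfa, Bnip3, Pdk1 and Ankrd37 was 142 to 155 CPM in Control and 113 to 123 CPM in STZ. This sum leaves out Hif1a, the tested member that rose. Each gene kept in it had a negative log2 fold change, so a lower sum follows from that choice. Over all 8 listed members the sum was 295.1 to 310.3 CPM in Control and 286.0 to 295.7 CPM in STZ. These ranges overlapped.

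The hypoxia-inducible factor binds a short core sequence, ACGTG or GCGTG, and the promoters of the members are shown to see which of the genes that moved carry it. RefSeq promoters of the GRCr8 assembly were matched by symbol for 9 of the 10 members, and the 250 bases before each start site were searched on both strands. A site CACGTG counts once on each strand, so that its matches overlap. At least 1 match was present in 5 members (Hif1a, Egln1, Bnip3, Pdk1 and Ankrd37) and in none of the start sites of the other 4 (Epas1, Egln3, Vegfa and Adm). Of 33465 promoters in the table, 36.7% held either core, 16.6% held ACGTG and 25.9% held GCGTG. The promoters of the 3 members that fell and of Ankrd37, which has the core closest to its start, are printed with matches in capitals. They are chr19:69804682-69804931 (minus strand), chr3:77113264-77113513 (plus strand), chr9:22452604-22452853 (plus strand, the first of 2 start sites) and chr16:53001257-53001506 (plus strand), each 5′ to 3′ along the gene and ending at the base before the start.
Egln1: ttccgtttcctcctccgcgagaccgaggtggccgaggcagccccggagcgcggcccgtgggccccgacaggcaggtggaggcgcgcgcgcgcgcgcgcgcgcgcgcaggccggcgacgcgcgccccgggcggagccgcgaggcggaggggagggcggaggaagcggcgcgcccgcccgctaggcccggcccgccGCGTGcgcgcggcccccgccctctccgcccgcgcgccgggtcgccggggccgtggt
Pdk1: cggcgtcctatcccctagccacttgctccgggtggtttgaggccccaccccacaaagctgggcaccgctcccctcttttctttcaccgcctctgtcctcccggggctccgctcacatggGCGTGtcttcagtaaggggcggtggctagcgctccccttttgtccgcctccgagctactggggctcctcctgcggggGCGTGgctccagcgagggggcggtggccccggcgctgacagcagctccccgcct
Vegfa: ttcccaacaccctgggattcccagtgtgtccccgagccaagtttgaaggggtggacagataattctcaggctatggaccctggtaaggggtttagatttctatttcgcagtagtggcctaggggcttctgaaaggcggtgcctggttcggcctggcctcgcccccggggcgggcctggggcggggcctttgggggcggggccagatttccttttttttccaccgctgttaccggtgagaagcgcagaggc
Ankrd37: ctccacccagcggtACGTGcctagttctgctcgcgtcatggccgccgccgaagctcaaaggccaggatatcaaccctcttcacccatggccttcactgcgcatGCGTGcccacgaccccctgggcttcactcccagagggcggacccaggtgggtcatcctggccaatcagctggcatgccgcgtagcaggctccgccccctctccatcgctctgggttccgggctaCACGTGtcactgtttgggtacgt
Egln1 held 1 match, GCGTG at bases -56 to -52 from the start. Pdk1 held GCGTG at -131 to -127 and at -54 to -50. Neither start site of Vegfa held a match in this window. Ankrd37 held 4 matches, of which the CACGTG near the start spans both strands, with ACGTG read along the gene at -22 to -18. Bnip3 likewise held 4 matches, all between -108 and -86, and Hif1a held 3. Within these 250 bases, of the 3 members that fell, Egln1 and Pdk1 carry the core and Vegfa does not. Sites further from the start were not searched. Both Bnip3 and Ankrd37 carry the core in this window without having passed the test. A match in these letters is not evidence of binding.

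The other genes of the oxygen-sensing pathway moved in both directions. Of 16 listed, 14 were tested, 3 were higher, 4 were lower and 7 did not pass the adjusted p of 0.05, with a median log2 fold change of -0.06. That 7 of 14 passed is close to the 50.9% of all genes tested. Arnt, the most common partner of the alpha subunits in binding DNA, fell by 0.22 on the log2 scale (SE 0.05), from 119 to 103 CPM on average. Ep300 and Crebbp, histone acetyltransferases that serve as co-activators of the factor, fell by 0.21 and 0.28 on the log2 scale. Cited2, which competes with HIF-1α for these co-activators, rose with a log2 fold change of 0.30 (SE 0.06), from 46.3 to 57.2 CPM. For these 4 genes the adjusted p of the edgeR test lay between 3.8e-05 and 1.2e-04. Chosen after its values were seen, Arnt2, an alternative partner of the alpha subunits, rose from 12.1 to 16.8 CPM (log2 fold change 0.48, SE 0.10, edgeR adjusted p = 1.2e-04). Chosen in the same way, Eloc, the elongin C subunit of the VHL ligase, fell from 22.3 to 16.9 CPM (-0.41 on the log2 scale, SE 0.09, edgeR adjusted p = 1.3e-04). Also chosen after their values were seen, Egln2 and Hif1an, the other hydroxylases tested, had log2 fold changes of -0.07 and -0.05 and did not pass (edgeR adjusted p = 0.207 and 0.457). Vhl, the recognition subunit of the ligase, had a log2 fold change of -0.04 (edgeR adjusted p = 0.592), with a 95% interval of -0.16 to 0.08.

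Genes of glucose uptake and glycolysis that the factor is known to induce also split. The list of 12 genes gave 13 rows, since Aldoa was listed in 2 rows, and 4 rows were higher, 6 were lower and 3 did not pass. The median log2 fold change was -0.20, against -0.01 over all genes tested. In that background 25.9% of genes were higher and 25.1% lower. Pfkfb4, which makes the activator of phosphofructokinase, had the largest fall of the list, from 11.2 to 5.90 CPM (log2 fold change -0.92, SE 0.13). Pfkl, the liver-type phosphofructokinase, fell from 178 to 121 CPM (-0.56 on the log2 scale, SE 0.05) and Pgk1, phosphoglycerate kinase, from 968 to 820 CPM (-0.24, SE 0.04). Ldha, which turns pyruvate into lactate, rose instead, from 925 to 1106 CPM (0.26 on the log2 scale, SE 0.04). The adjusted p of these 4 genes lay between 1.6e-12 and 2.4e-07 in the edgeR test.

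The remaining targets of the factor moved in both directions. Of 36 such genes, 34 were listed and 30 tested, of which 15 were higher, 7 were lower and 8 did not pass, and the median log2 fold change was 0.06. Of all genes tested, 25.9% were higher and 25.1% lower. The split of this list depended on scaling, with 13 higher and 9 lower by the upper quartile and 11 higher and 9 lower with library size only. It depended on single samples too, with 11 to 14 higher and 7 to 8 lower when 1 sample was left out. Hmox1, heme oxygenase 1, which is also induced by oxidative stress, had the largest rise, from 12.7 ± 0.816 CPM in Control to 43.7 ± 2.39 CPM in STZ (SD, n = 3 in each group). Its log2 fold change was 1.78 (SE 0.08, edgeR adjusted p = 4.7e-22). Angptl4, a secreted inhibitor of lipoprotein lipase, rose by a log2 fold change of 1.54 from only 5 to 7 reads per Control sample to 18 to 23 per STZ sample. Tgfa, a ligand of the epidermal growth factor receptor, rose from 3.24 to 6.97 CPM (log2 fold change 1.10, SE 0.18). Ddit4 and Ccng2, which encode a brake on mTORC1 and a cyclin that arrests growth, rose with log2 fold changes of 0.76 and 0.51. Tfrc, the transferrin receptor, fell from 492 to 299 CPM (log2 fold change -0.72, SE 0.04). The edgeR adjusted p of these 6 genes was 5.2e-04 or less, and Hmox1, Angptl4 and Tgfa also passed the fold-change threshold, although the log2 fold change of Tgfa was 0.95 without STZ replicate 1. By role, 7 of 9 tested genes of acid-base balance, iron and secreted factors, Angptl4 among them, were higher and 1 was lower. Of 11 genes of chromatin and feedback, 6 were higher and 3 lower, where 25.9% of all genes tested were higher. Among 6 collagen-processing genes 2 were higher and 2 lower, and among 4 further mitochondrial targets 1 was lower and 3 did not pass.

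**Figure D2:**
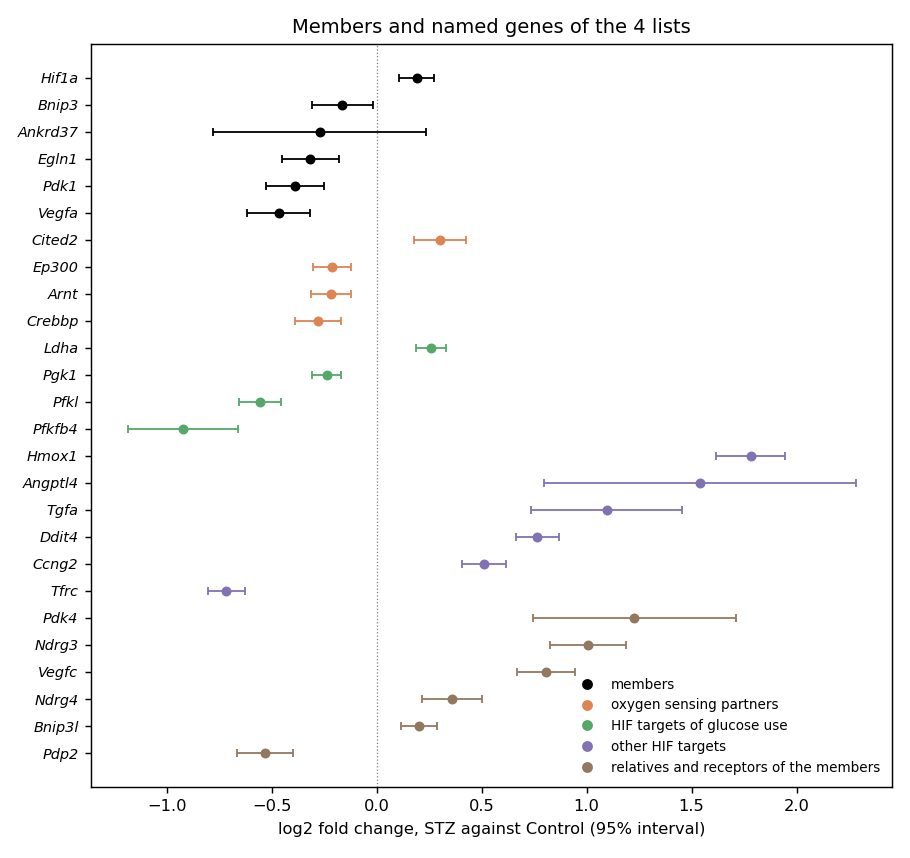
Log2 fold change of STZ against Control with its 95% interval from the edgeR fit, for the 6 members tested and the named genes of 4 further lists, coloured by list. The members lie between -0.47 and 0.19, while Hmox1, Angptl4, Tgfa, Ndrg3 and Pdk4 lie above 1.

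Several close relatives of the members rose. Of 22 relatives, receptors and antagonists, 18 were listed and 15 tested, of which 7 were higher, 2 were lower and 6 did not pass, with a median log2 fold change of 0.09. The shares over all genes tested were 25.9% higher and 25.1% lower, or 50.9% in either direction. Vegfc, the lymphatic vessel growth factor of the VEGF family, was at 25.1, 23.1 and 25.8 CPM in the Control replicates and 42.1, 43.3 and 44.2 CPM in the STZ replicates. It rose where Vegfa fell, with a log2 fold change of 0.81 (SE 0.07, edgeR adjusted p = 4.1e-13). Chosen after their values were seen, Vegfb was lower (log2 fold change -0.25) and Pgf, placental growth factor, was higher (0.61), with edgeR adjusted p of 0.00417 and 0.00818. Kdr, the main receptor of VEGF-A, was removed by the filter, with 0, 2 and 1 reads in Control and 6, 9 and 7 in STZ.

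Pdk4, the pyruvate dehydrogenase kinase known for its induction by fasting, rose from 1.60 to 3.78 CPM (log2 fold change 1.23, SE 0.24) where Pdk1 fell. Pdp2, a phosphatase that reactivates pyruvate dehydrogenase, fell by 0.53 on the log2 scale (SE 0.07). Ndrg3 and Ndrg4, paralogs of Ndrg1, rose with log2 fold changes of 1.01 and 0.36. That of Ndrg3 was at the fold-change threshold, between 0.98 and 1.04 with 1 sample left out. The edgeR adjusted p of these 4 genes was 4.2e-05 or less. The related Pdk2, Pdk3 and Pdp1, chosen after their values were seen, had log2 fold changes of -0.13, 0.09 and -0.04. They did not pass (edgeR adjusted p = 0.123, 0.169 and 0.670). Bnip3l, the paralog of Bnip3 with the same role in mitophagy, rose from 148 to 170 CPM (log2 fold change 0.20, SE 0.04, edgeR adjusted p = 1.4e-04). The log2 ratio of Bnip3 to Bnip3l reads within a sample was -2.26, -1.95 and -2.16 in the Control replicates and -2.52, -2.43 and -2.50 in the STZ replicates. The groups did not overlap, and the difference of -0.36 had an exact two-sided permutation p of 0.1, the smallest that 3 samples against 3 allow.

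**Figure D3:**
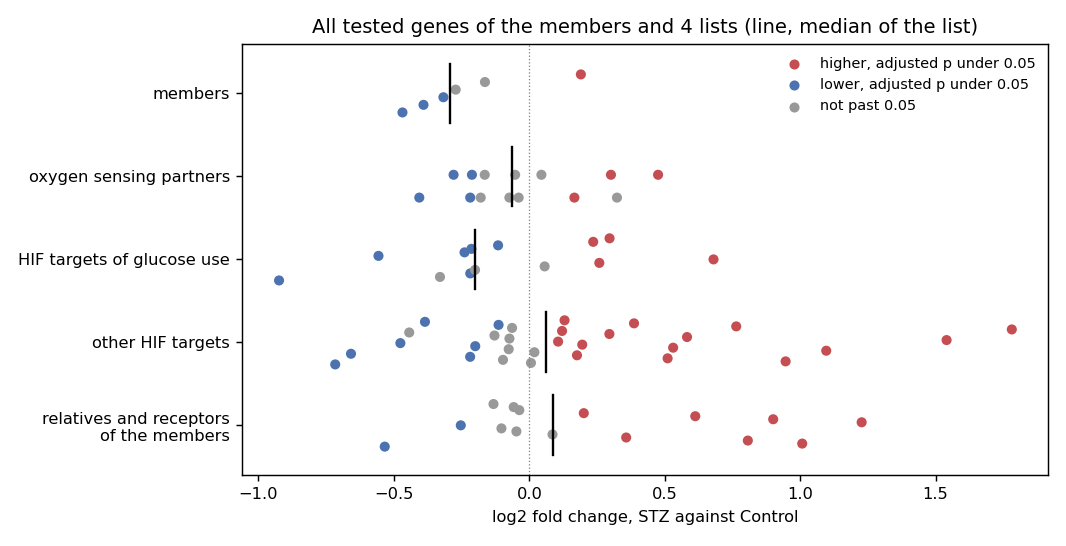
Log2 fold change of every tested gene of the members and of 4 lists, red where higher and blue where lower with an adjusted p under 0.05 and grey otherwise, with a line at the median of each list. The medians run from -0.29 for the members to 0.09 for their relatives and receptors, and every list holds genes on both sides of 0.

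The direction of the 6 members held under all 15 alternatives of scaling, filter, test, block or left-out sample. The log2 fold change lay between 0.16 and 0.20 for Hif1a, between -0.35 and -0.26 for Egln1, between -0.50 and -0.43 for Vegfa and between -0.43 and -0.33 for Pdk1. The adjusted p of these 4 genes stayed at or under 0.00275 in every refit by edgeR, DESeq2 or limma. Ankrd37 moved most, from -0.45 to -0.05 with 1 sample left out, and never passed the threshold.

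**Figure D4:**
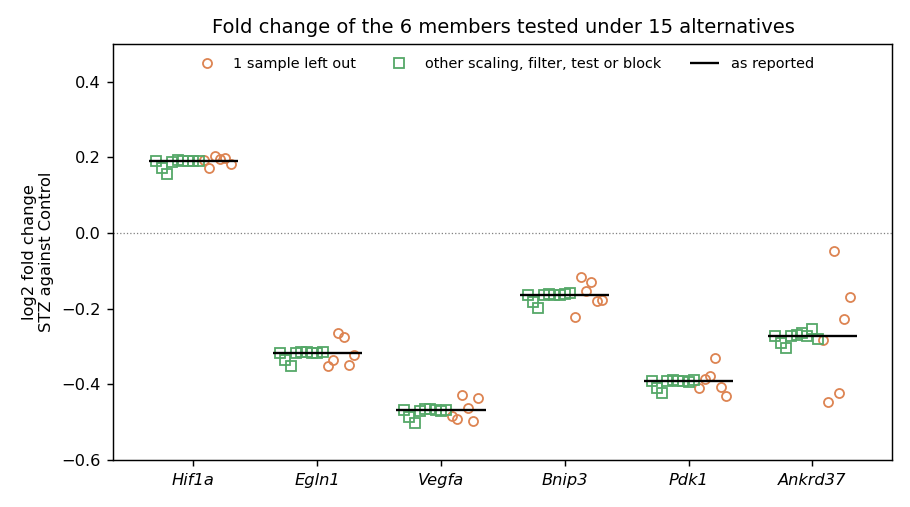
Log2 fold change of the 6 members tested as reported (line) and under 15 alternatives (circles for 1 sample left out, squares for other scalings, filters, tests or the block). All points stay on the side of 0 of the reported value, and Ankrd37, with 20 to 40 reads per sample, scatters most.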

How the data were processed

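RNA of NRK-52E cells treated with vehicle (3 samples) or 10 mM of STZ (3 samples) for 24 h was sequenced in 100-bp single-end mode. The authors aligned reads with STAR (version 2.7.10a per the labels) to Rnor6, counted those mapped uniquely with featureCounts, and deposited the raw counts of each sample. Every row was tested as deposited.

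In edgeR 4.0.16 (R 4.3.3), libraries were scaled by TMM, 11870 of 18930 genes passed filterByExpr, groups were compared by the quasi-likelihood test, and p-values were adjusted over all genes tested. The common biological coefficient of variation, the spread between samples of a group beyond counting error, was 3.25%. SE is the size of the log2 fold change over the root of F. Ratios of counts used an offset of 0.5. Alternatives were 3 scalings, 2 filters, DESeq2 1.42.0, edgeR's exact test, limma-voom (limma 3.58.1), a block for the replicate number, and leaving out each sample in turn. The steps were tested on simulated counts. Members and lists were chosen with earlier results of these data known. Named were all members and, from each list, genes past both thresholds (adjusted p under 0.05, absolute log2 fold change over 1) and the 4 others with the smallest p, of which 1 is not reported here. No library appeared to be deposited again, as the chi-square between samples of 1 group was at least 1.85 times its degrees of freedom. Gene lengths on Rnor6 were not used here, so levels were not compared between genes.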

Additional observations from a re-analysis of the deposited data

How the results depend on the processing

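For Bnip3, 4 of 15 alternatives passed the threshold of the adjusted p, namely the upper quartile (log2 fold change -0.18), library size only (-0.20), the replicate block (-0.16) and the fit without Control replicate 1 (-0.22), and with 1 sample left out its value was -0.22 to -0.12; the cause was not tested. The 86 other refits of members and the 314 refits of other named genes kept their direction and their call by adjusted p. All 195 recounts stayed within 1.5 times the reported count. The call did not include the fold-change threshold. The log2 fold change of Ndrg3 was 0.99 with the upper quartile and 0.97 with library size only, and that of Tgfa was 0.95 without STZ replicate 1. Angptl4 gave no value with at least 10 counts in every sample. The ratio of Egln3 to Egln1 was not run, as Egln3 has no row.

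The same replicate numbers are used in both groups. Correlations within each number, taken on the distance of every gene from its group mean, were 0.04, -0.03 and 0.12 across 10157 genes. The value of 0.12, for replicate 3, was the largest of any pair of a Control and an STZ sample. Of 6 samples, 3 correlated best with their own number in the other group. With only 3 numbers, these values cannot decide whether samples of 1 number were handled together. With the replicate block 1 member was higher, 4 were lower, and 3139 genes were higher and 3060 lower, against 3070 and 2976 without it. Depth limits Epas1, Ndrg1 and Ankrd37, and the table gives no value for Egln3 and Adm.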
